A study of Mus musculus with 6 samples.

Results

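Complement genes were examined in sorted CD45- cells of mouse mammary tumors, which are the cells of a dissociated tumor that lack the leukocyte surface protein CD45. The set holds 9 genes: C3, C4b, Cfb, C1ra, C2, Serping1, Cd55, C1qa and C1qb. They were found by matching the accession of each array probe to a gene symbol, which gave 12 probes, and all 9 were among the 22503 genes tested. For a gene with several probes the brightest stood for it. The cells came from late carcinomas driven by MMTV-PyMT, an oncogene of polyomavirus (middle T) expressed from the promoter of mouse mammary tumor virus, and donor tumor cells of either genotype were grown in the mammary gland of C57BL/6 hosts of the same strain. Both groups therefore carry the oncogene, and they differ in the receptor RANK, an activator of NF-kB whose gene is Tnfrsf11a: RANK+/+ against RANK-/-. A CD45- sort enriches tumor cells but also keeps fibroblasts and endothelial cells, which can belong to the host in both groups. There were 6 RNAs, 3 of each genotype, in 3 pairs, and each pair was hybridized in 2 colors to 2 technical replicate arrays, A and B. Whether RNAs of the same genotype were taken from separate tumors is not given by the labels, so p values measure only the spread between these RNAs, which may be technical. Per the methods of the study, hosts of such transplants were females some weeks old, and whether tumors were pooled for the arrays was not given in the sources used here.

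Complement is a cascade of plasma proteins made mainly by the liver, although many cell types in tissues, fibroblasts and macrophages among them, also transcribe some of its genes. In the classical pathway C1q binds a target and activates the proteases C1r and C1s, which cleave C4 and C2 into a convertase that splits C3. In the alternative pathway factor B supplies the protease of a second kind of convertase, which amplifies C3 cleavage. Host cells hold the cascade back with inhibitors such as C1 inhibitor, encoded by Serping1, and CD55, also called decay-accelerating factor. Interferon gamma and acute phase cytokines are known inducers of several of these genes, and tissue C1q comes largely from macrophages.

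In all, 6 of the 9 genes, C3, C4b, Cfb, C1ra, C2 and Serping1, shared a pattern in which the 3 RNAs labelled RANK-/- were close to each other and the 3 labelled RANK+/+ were far apart. Their levels spanned 0.26 to 1.07 on the log2 scale among the RANK-/- RNAs and 2.37 to 4.001 among the RANK+/+ RNAs. The lowest of the 6 RNAs was the RANK+/+ RNA of pair 3 for all 9 genes, which was the case for 18.5% of all genes tested. As a result the ratio of RANK-/- over RANK+/+ was 4.997-fold to 10.75-fold for these 6 genes in pair 3, but it ranged from 1.51-fold to 2.92-fold in pair 2 and was below 1 for 5 of the 6 in pair 1. None of the 9 passed the test across the 3 pairs (limma, adjusted p 0.999 for each). C1qa, C1qb and Cd55 differed by less than 2-fold in every pair. C1qa and C1qb had the lowest mean signals of the 9, where the offset added to all signals makes ratios and ranges smaller.

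The genotype labels were checked with the targeted gene. Tnfrsf11a was measured by 1 probe, and its log2 ratio of RANK-/- over RANK+/+ was 2.03, 1.15 and 1.76 in pairs 1, 2 and 3 (mean 1.65 ± 0.45, SD, n = 3), higher in the channel labelled RANK-/- every time. This goes against the label. Where the probe lies relative to the deleted part of the gene was not given in the sources used here, and a probe outside it would check nothing. The directions reported for the complement genes depend on these labels being right, and RANK-/- and RANK+/+ name the RNAs as labelled. The dye arrangement was RANK-/- in Cy5 in pair 1 and RANK+/+ in Cy5 in pairs 2 and 3, so dye and pair 1 cannot be told apart. On each array 51.9% to 58.8% of probes were well above background, and 0 spots were saturated. On every array and in both channels all 9 genes were called above background, so each has a measured level in every RNA.

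Promoter sequence was in the RefSeq table (mouse assembly GRCm38.p6) for 4 of the 9 genes: C3, C1ra, Cd55 and C1qb. The promoters of C3 and C1ra are printed because the levels of these genes were alike over the 6 RNAs (Pearson r 0.95), one on chromosome 17 and the other on chromosome 6. Each run holds the 250 bases before the transcription start, written 5′ to 3′ on the gene's strand. Capitals mark matches on either strand to TTNNGNAA, a loose form of the site bound by C/EBP factors, which are transcription factors of the acute phase response. The C3 promoter lies at chr17:57228137-57228386 on the minus strand and the C1ra promoter at chr6:124512371-124512620 on the plus strand.
C3: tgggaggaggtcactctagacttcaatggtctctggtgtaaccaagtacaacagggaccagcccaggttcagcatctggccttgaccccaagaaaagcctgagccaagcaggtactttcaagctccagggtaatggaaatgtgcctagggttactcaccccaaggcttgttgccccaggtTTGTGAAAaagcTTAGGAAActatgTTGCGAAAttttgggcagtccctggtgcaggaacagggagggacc
C1ra: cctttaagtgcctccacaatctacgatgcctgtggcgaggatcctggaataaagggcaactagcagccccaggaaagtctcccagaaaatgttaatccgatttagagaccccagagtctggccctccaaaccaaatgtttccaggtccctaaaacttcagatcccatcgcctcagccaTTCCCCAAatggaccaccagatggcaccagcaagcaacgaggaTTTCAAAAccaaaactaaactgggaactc

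The C3 promoter matched at 3 places, from -70 to -63, -58 to -51 and -45 to -38 relative to the start, the last on both strands, and the C1ra promoter at 2 places on the minus strand, from -72 to -65 and -29 to -22. The Cd55 and C1qb windows held no match. Such a match is common, since 36.9% of all 27025 promoters in the table had at least 1 in a window of the same length. The interferon gamma activated site TTCNNNGAA was in 7.18% of promoters, the interferon-stimulated response element in 3.04% and the kappa-B motif in 3.75%, and none of these was found in the 4 windows, searched on both strands. These matches describe letters in the sequence and no binding was measured.

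The recognition subunit of the classical pathway had mean ratios near 0. C1qa and C1qb encode chains A and B of C1q, whose binding to antibody or to a damaged surface starts the pathway. The C1qa log2 signal was 8.03, 7.93 and 7.03 in RANK-/- RNAs 1, 2 and 3 and 8.73, 7.33 and 6.90 in RANK+/+ RNAs 1, 2 and 3. The RNAs of pair 1 were the high ones in both groups, those of pair 3 the low ones, and the groups overlapped. Its pair log2 ratios were -0.70, 0.59 and 0.13 (mean 0.01 ± 0.66, SD, n = 3; SE 0.29; 95% interval -0.78 to 0.79). C1qb log2 signals were 7.90, 7.90 and 7.29 in the RANK-/- RNAs and 8.74, 7.24 and 7.01 in the RANK+/+ RNAs. RANK+/+ RNA 1 was again the highest and RANK+/+ RNA 3 the lowest, with overlapping groups, and the C1qb ratios were -0.84, 0.66 and 0.29 (mean 0.04 ± 0.78, SD, n = 3). Over the 6 RNAs the C1qa and C1qb log2 levels had a Pearson r of 0.98, given as a description since the 2 RNAs of a pair share an array. The sign of these near-zero means turned under some alternatives, among them leaving out pair 2 or pair 3, median centring and a dye term.

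The proteases and substrates of the classical pathway had larger ratios in pair 3 than C1q did. C1ra encodes C1r, the protease that C1q activates first. Its log2 signal was 11.23, 11.49 and 11.24 in RANK-/- RNAs 1, 2 and 3 and 12.07, 10.30 and 8.92 in RANK+/+ RNAs 1, 2 and 3. The RANK-/- RNAs sat within 0.26 of each other, while the RANK+/+ RNAs lay both above and below all of them. The ratios were -0.84, 1.19 and 2.32 in pairs 1, 2 and 3, or 1.79-fold lower, 2.28-fold higher and 4.997-fold higher (mean 0.89 ± 1.60, SD, n = 3; SE 0.64; limma adjusted p 0.999). A second C1ra probe gave -0.70, 1.30 and 2.30. C1ra has a near-identical copy, C1rb, with which its probes could share signal, so the assignment between the copies is uncertain.

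C4b encodes complement C4, which C1s cleaves and which then attaches to the target surface. Its log2 signal was 15.44, 16.28 and 16.52 in the RANK-/- RNAs and 14.57, 15.51 and 13.09 in the RANK+/+ RNAs of pairs 1, 2 and 3. The groups overlapped by 1 value, since RANK+/+ RNA 2 lay just above RANK-/- RNA 1. C4b was the only one of the 9 genes higher in the RANK-/- channel in all 3 pairs, with ratios of 0.87, 0.77 and 3.43 (mean 1.69 ± 1.51, SD, n = 3; SE 0.61; 95% interval 0.05 to 3.33). That is 1 of 9 against 9.93% of all genes, a share near the background, and 0 of 9 were lower in all 3 pairs against 9.65%. It was also the only one with an unadjusted limma p below 0.05 (0.0456; adjusted 0.999), against 1.66% of all genes higher and 1.22% lower at that level. Signals of the near-identical gene C4a may enter the C4b probe, and no probe was matched to C4a here.

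C2 encodes the protease of the classical convertase. The log2 signal of C2 was 10.27, 10.68 and 10.91 in the RANK-/- RNAs and 10.68, 10.09 and 8.31 in the RANK+/+ RNAs. RANK+/+ RNA 3 was low by 1.78 against RANK+/+ RNA 2, the next lowest, and the other RNAs of both genotypes overlapped. The ratios were -0.41, 0.60 and 2.60 (mean 0.93 ± 1.53, SD, n = 3; SE 0.62), the last equal to 6.05-fold.

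C3, the component on which all pathways converge, was high in all 3 RANK-/- RNAs and in 1 RANK+/+ RNA. In log2 units its signal was 15.08, 14.87 and 15.36 in the RANK-/- RNAs and 15.31, 13.33 and 12.18 in the RANK+/+ RNAs of pairs 1, 2 and 3. RANK+/+ RNA 1 lay inside the range of the RANK-/- RNAs, and the other RANK+/+ RNAs lay below it. The ratios were -0.23, 1.54 and 3.18, or 1.17-fold lower, 2.92-fold higher and 9.07-fold higher (mean 1.499 ± 1.71, SD, n = 3; SE 0.68; 95% interval -0.35 to 3.34; limma p 0.0886, adjusted 0.999). A second C3 probe gave -0.21, 1.35 and 2.97. Cfb encodes factor B, the protease of the alternative convertase, and it had the widest spread of the 9. Its log2 signal was 11.71, 12.11 and 12.21 in the RANK-/- RNAs and 13.40, 11.45 and 9.40 in the RANK+/+ RNAs. The RANK+/+ RNAs ran from above all RANK-/- RNAs to far below them, a 16.01-fold span between RANK+/+ RNAs 1 and 3. The Cfb ratios were -1.70, 0.66 and 2.81 (mean 0.59 ± 2.25, SD, n = 3; SE 0.90), from 3.24-fold lower in pair 1 to 7.01-fold higher in pair 3.

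The inhibitors had unlike patterns, Serping1 following C3 and Cd55 following neither C3 nor C1q. Serping1 encodes C1 inhibitor, which inactivates C1r and C1s. Its log2 signal was 12.73, 12.76 and 13.11 in the RANK-/- RNAs and 13.07, 11.56 and 10.61 in the RANK+/+ RNAs. The order of the RNAs was close to that of C3, with RANK+/+ RNA 1 inside the RANK-/- range and the other RANK+/+ RNAs below it. The ratios were -0.34, 1.20 and 2.50 (mean 1.12 ± 1.42, SD, n = 3; SE 0.58; limma adjusted p 0.999), and a second probe gave -0.34, 1.02 and 2.12. Cd55 encodes the membrane protein that takes convertases apart on host cells. The Cd55 log2 signal was 11.17, 10.45 and 10.89 in the RANK-/- RNAs and 10.48, 10.88 and 10.37 in the RANK+/+ RNAs. The groups overlapped, and Cd55 was the 1 gene of the 9 whose RANK-/- RNAs spanned more (0.72) than its RANK+/+ RNAs (0.51). Its ratios of 0.69, -0.43 and 0.52 (mean 0.26 ± 0.60, SD, n = 3) had the opposite sign to those of Serping1 in pairs 1 and 2.

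**Figure D1:**
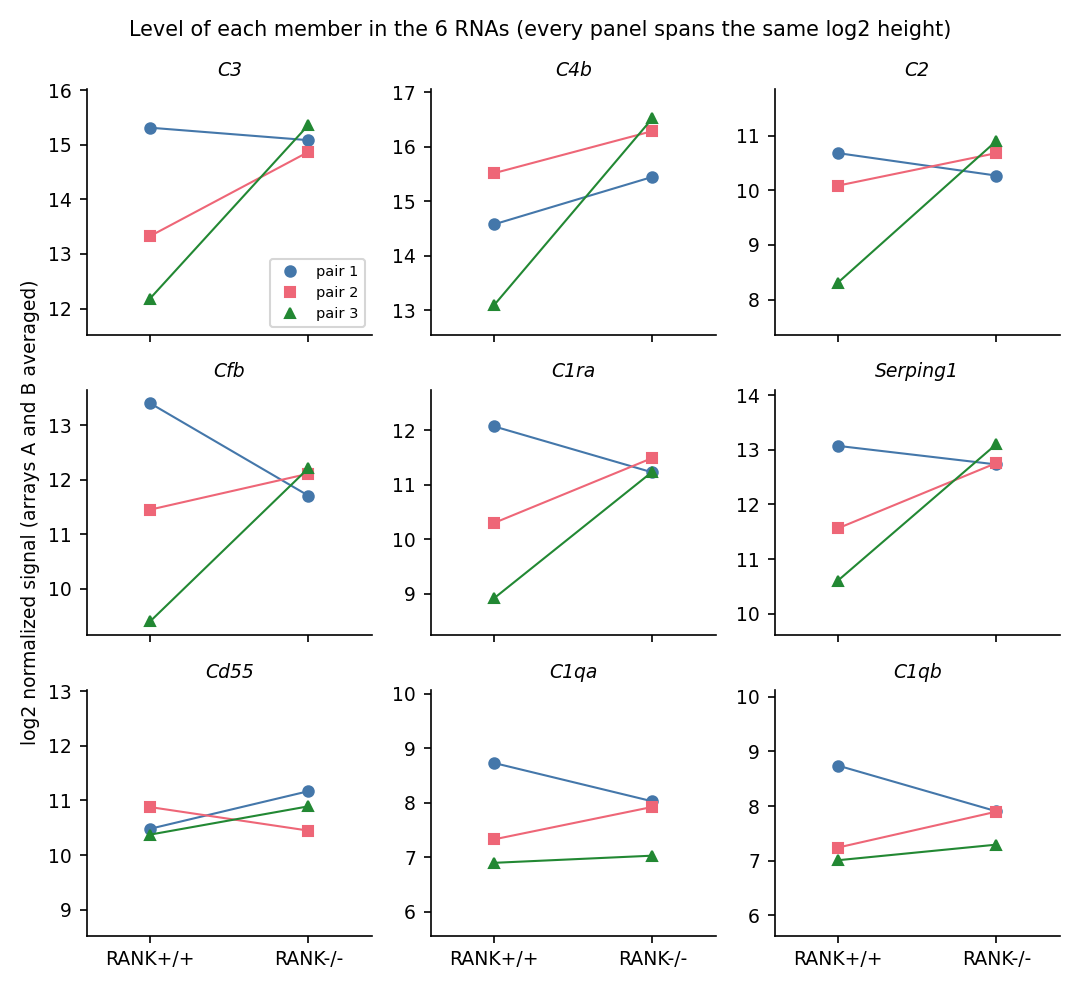
Level of each of the 9 complement genes in the 6 RNAs, as log2 normalized signal averaged over arrays A and B (vertical axis, a separate position but the same height in each panel), with RANK+/+ on the left and RANK-/- on the right and a line joining the RNAs of 1 pair. The lines of C3, C4b, C2, Cfb, C1ra and Serping1 fan out on the RANK+/+ side, over 2.37 to 4.001, and draw together on the RANK-/- side, over 0.26 to 1.07.

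Each count of the 9 genes was set beside the same count over all genes. In pair 3, 6 of 9 genes were at least 2-fold higher in the RANK-/- channel, against 4.91% of all genes, and the same 6 were at least 4-fold higher, against 0.742%. They ranked between 13 (C4b) and 92 (C1ra) of 22503 by their pair 3 ratio. Were the labels of pair 3 exchanged, all its ratios would turn, and the same ranks and shares would count genes lower in place of higher. In pair 2, 3 of 9 (C3, C1ra and Serping1) were at least 2-fold higher, against 2.45%, and in pair 1 the count was 0 of 9, against 3.66%. A negative ratio in pair 1 with positive ratios in pairs 2 and 3 was found for 7 of 9 genes, against 13.5% of all genes. The median ratio of the 9 genes was -0.41, 0.66 and 2.50 in pairs 1, 2 and 3, and that of all genes 0.02, -0.01 and 0.00090. With median centring in place of loess they were -0.19, 0.45 and 1.86 for the 9 genes and 0.13, -0.19 and -0.39 for all genes. By the rank product, the kind of test the study used, 0 of 9 were called (0.0444% of all genes were called higher and 0.0444% lower at a proportion of false positives below 0.05), and the smallest proportion among the 9 was 0.102, for C4b. By limma 0 of 9 passed, against 0% of all genes (0 of 22503; 647 had an unadjusted p below 0.05).

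Technical replicates placed the ratios closely. The SD between arrays A and B of a pair was 0.01 to 0.11 for the 9 genes, and the SD between pairs was larger for all 9, as it was for 92.8% of all genes. Arrays A and B had the same sign in every pair for 8 of 9 genes, the exception being C1qa in pair 3 (-0.00075 and 0.26). Pair 3 carried most of the mean ratio. Without it the mean was 0.66 for C3, 0.82 for C4b, -0.52 for Cfb, 0.17 for C1ra, 0.09 for C2 and 0.43 for Serping1. Without pair 1 the same 6 means were 2.36, 2.10, 1.73, 1.76, 1.60 and 1.85, and without pair 2 they were 1.48, 2.15, 0.56, 0.74, 1.09 and 1.08. With 3 pairs an exact two-sided sign-flip permutation test cannot give a p below 0.25.

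**Figure D2:**
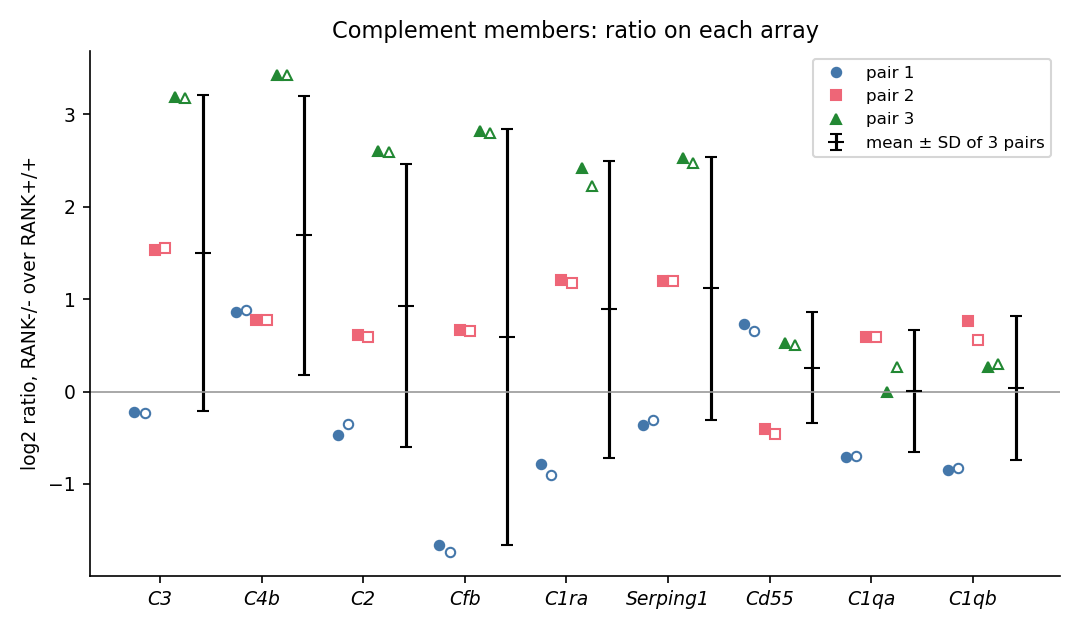
Log2 ratio of RANK-/- over RANK+/+ signal (vertical axis) for the 9 complement genes on each array, with pairs 1, 2 and 3 as circles, squares and triangles, array A filled and array B open, and the mean ± SD of the 3 pairs as a black bar. Arrays A and B nearly coincide, the triangles of pair 3 stand highest for 6 genes, from 2.32 to 3.43, and the bars of those 6 genes are long.

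The spread of the RANK+/+ RNAs was also described for all genes. A larger range among the RANK+/+ RNAs than among the RANK-/- RNAs was seen for 8 of 9 complement genes and for 50.7% of all genes. A RANK+/+ range of at least 2 on the log2 scale was seen for 6 of 9, against 2.32% of all genes, and a RANK-/- range of that size for 0 of 9, against 1.27%. RANK+/+ RNA 3 was lowest and RANK+/+ RNA 2 second lowest for 6 of 9 genes, against 4.92%. These were C3, Cfb, C1ra, C2, Serping1 and C1qb, and for C4b RANK+/+ RNA 1 was second lowest. These counts were chosen after the levels had been seen. RNAs 2 and 3 of a genotype had the same dye, so they can be compared without the dye. For C3, C4b, Cfb, C1ra, C2 and Serping1, RANK+/+ RNA 2 was above RANK+/+ RNA 3 by 0.96 (Serping1) to 2.42 (C4b). For the same 6 genes the RANK-/- RNA of pair 3 differed from that of pair 2 by -0.25 (C1ra) to 0.49 (C3). The 8 of 9 held with Agilent's own processed signals, with median centring, and with no normalization of the background-corrected signals, all 3 tried after seeing the data. Summed over the 6 genes, the normalized signal was 93146, 125643 and 153963 in the RANK-/- RNAs and 90541, 65202 and 16419 in the RANK+/+ RNAs of pairs 1, 2 and 3. The sum, in which the bright C4b and C3 probes weigh most, was thus similar for both RNAs of pair 1. The single genes were not alike there, C4b being 1.83-fold higher and the other 5 from 1.17-fold (C3) to 3.24-fold (Cfb) lower. The sum of RANK+/+ RNA 3 was 5.51 times below that of RANK+/+ RNA 1. In such sorted cells, fewer cells of a type and less RNA per cell cannot be told apart.

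The log2 levels of the 9 genes were also compared with each other over the 6 RNAs. Among C3, C4b, Cfb, C1ra, C2 and Serping1 Pearson r was 0.58 to 1.00 over 15 gene pairs, highest for C3 with Serping1 (0.997) and lowest for C4b with Cfb (0.58). Between those 6 and C1qa or C1qb r was 0.09 to 0.82, lowest for C4b. Cd55 had r of -0.12 to 0.49 with the other 8. The 6 RNAs share arrays in pairs and the grouping was made after seeing them, so these values are descriptions. Among all other tested genes, the nearest to C3 were Ptgis, which encodes prostacyclin synthase (r 0.997, Spearman rho 0.89), Tek, the angiopoietin receptor of endothelial cells (0.997, rho 0.83), and Galnt16, a glycosyltransferase gene (0.993, rho 0.89). Without the 2 RNAs farthest from the median of C3 these r became 0.81, 0.84 and 0.70. The nearest to C1ra were Csf1, which encodes macrophage colony-stimulating factor (r 0.994, rho 1.00), the transcript named BC057675 in the files (0.992) and Radil (0.991), with r of 0.98, 0.99 and 0.90 without the 2 farthest RNAs. The nearest to C1qa were Clec4n, a C-type lectin gene of myeloid cells (r 0.996, rho 1.00), Snapc4 (0.995) and the transcript ENSMUST00000164410 (0.989), with r of 0.99, 1.00 and 0.97 without the 2 farthest. An r above 0.95 was reached by 135 genes with C3, 74 with C1ra and 52 with C1qa.

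The rest of the pathway was taken from a list of 48 further complement genes, of which 24 were tested. None of the 24 passed the limma test (0 had an unadjusted p below 0.05), 2 were higher in the RANK-/- channel in all 3 pairs and 1 was lower, shares not above the 9.93% and 9.65% of all genes. The higher ones were Cr1l, which encodes the rodent convertase inhibitor Crry (log2 ratios 0.44, 0.07 and 0.45; mean 0.32 ± 0.22, SD, n = 3), and Cfhr2, also listed as a regulator (0.21, 0.29 and 0.53; mean 0.34 ± 0.16, SD, n = 3). The lower one was C5ar2, the second receptor for C5a (-0.26, -0.23 and -0.08; mean -0.19 ± 0.10, SD, n = 3). None of these ratios was above 0.53 in size on the log2 scale. That sign pattern of C3, negative in pair 1 only, was found for 8 of 24, and 8 of 24 were at least 2-fold higher in pair 3, against 13.5% and 4.91% of all genes. Their median ratios were 0.12, -0.01 and 0.44, and with median centring 0.24, -0.20 and -0.01, so the sign in pair 3 turned. The medians of all genes were then 0.13, -0.19 and -0.39, so the median of the 24 stayed above that of all genes in pair 3.

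By role, all 5 other genes of the C1 complex were tested, with medians of -0.26, 0.51 and 1.56. Of these, 4 of 5 had the sign pattern of C3, against 13.5% of all genes. The following genes were singled out after their values were seen. C1s1 and C1s2, copies of the gene for the protease C1s that share sequence with each other, had ratios of -0.26, 0.51 and 2.13 and of -0.42, 0.69 and 2.43. C1rb, the copy of C1ra, had -0.95, 1.13 and 1.56. C1rl, a C1r-like protease gene, did not have that pattern, with 0.80, -0.46 and 0.13. C1qc, the third chain of C1q, had -0.26, 0.25 and 0.19, which is close to C1qa and C1qb. Of 15 regulators 8 were tested, and all 8 were above 0 in pair 3, against 11279 of all 22503 genes. Their medians were 0.35, -0.16 and 0.65, or 0.58, -0.30 and 0.27 with median centring. Clu, which encodes clusterin, had 1.15, -0.49 and 2.47, so clusterin was lower in pair 2, where C3 was higher.

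The remaining steps were thinly represented. Of 8 lectin pathway genes 1 was tested, Colec11 (-0.06, -0.06 and 0.17), and of 7 terminal pathway genes 2 were, Hc for C5 (0.59, -0.28 and 1.60) and C8g (0.37, 0.04 and -0.05). Of the other genes of the membrane attack complex, C6, C8a, C8b and C9 were well above background on 0 arrays in both channels, whereas 1 of 2 C7 probes was above it on 4 RANK-/- and 4 RANK+/+ arrays, too few of them in full pairs to be tested. Also on 0 arrays were Masp1 and Masp2, the lectin pathway proteases. Cfd, factor D of the alternative pathway, had 0.48, -0.55 and -0.19, and Cfp, properdin, had -0.04, 0.05 and 0.42. Of 10 receptors 6 were tested, with medians of -0.29, -0.03 and 0.02, or -0.16, -0.22 and -0.38 with median centring. The C3a receptor gene C3ar1 was above background on 0 RANK-/- and 2 RANK+/+ arrays and the C5a receptor gene C5ar1 on 0 of either, so neither was tested. The probes measured thus covered the opening steps of the classical pathway, C3, factor B and inhibitors, and little of the end of the cascade.

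**Figure D3:**
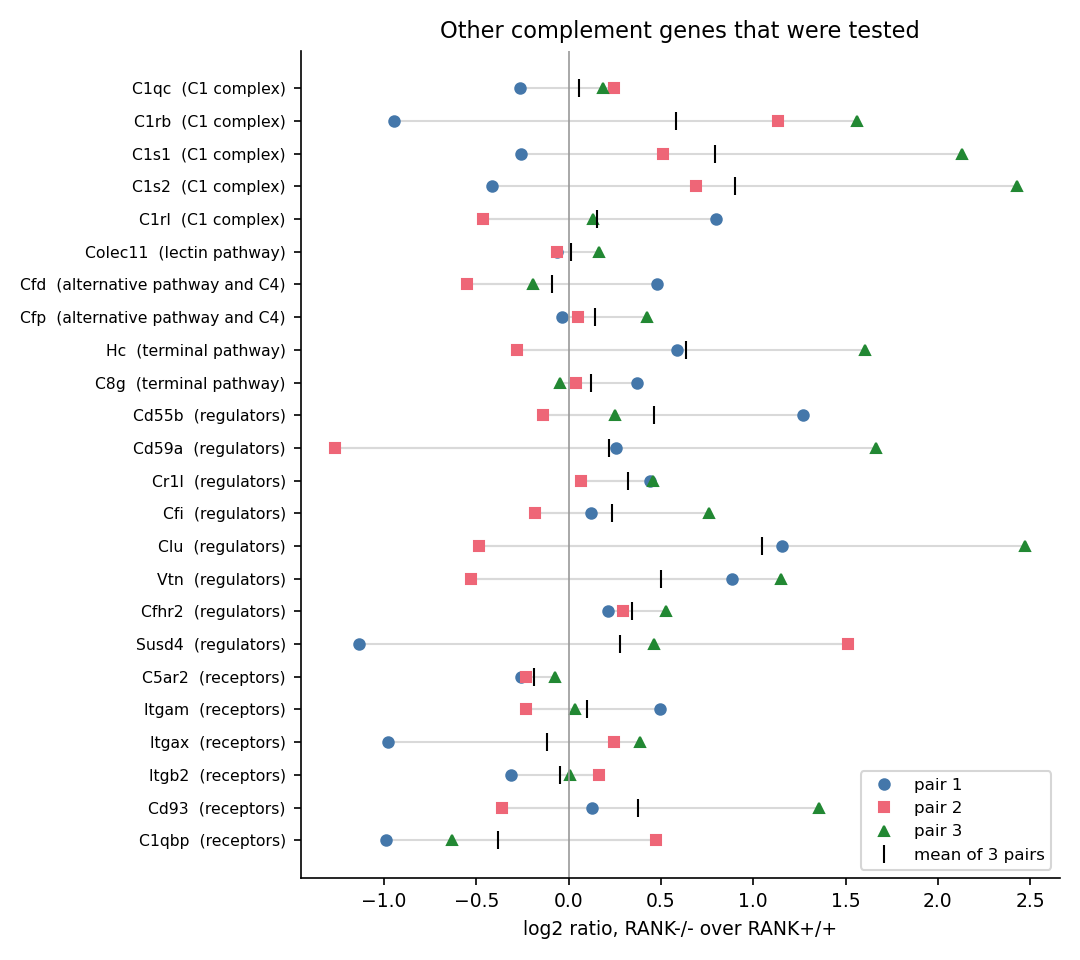
Log2 ratio of RANK-/- over RANK+/+ (horizontal axis) for the 24 other complement genes tested, listed by role, with pairs 1, 2 and 3 as circles, squares and triangles and the mean of the 3 pairs as a black tick. C1s1, C1s2, C1rb and Clu reach 1.56 to 2.47 in pair 3, and the 6 receptor genes lie on both sides of 0, with medians of -0.29, -0.03 and 0.02.

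Several of the genes lie next to each other in the genome, so their neighbours were set beside them. The order of genes was taken from the GRCm38.p6 table. C4b, Cfb and C2 lie in the class III part of the major histocompatibility complex on chromosome 17. The 15 other tested genes within and beside this stretch had median ratios of 0.12, -0.03 and 0.73 in pairs 1, 2 and 3. Of these, 5 of 15 were at least 2-fold higher in pair 3, against 4.91% of all genes. The highest of them was Tnxb, an extracellular matrix gene beside C4b (0.06, 1.39 and 2.32), below all 3 complement genes in pair 3. On chromosome 6 C1ra lies with C1s1, C1rb and C1s2, and the 7 neighbours that are no complement genes had medians of -0.26, 0.21 and -0.13, with 0 at least 2-fold higher in pair 3. C1rl, directly beside C1ra, had ratios of the opposite sign to it in pairs 1 and 2. On chromosome 4 C1qa, C1qb and C1qc lie together, and 2 of their 10 neighbours were at least 2-fold higher in pair 3, against the same 4.91%.

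Lists of cell type markers and of inducible genes were set beside the complement genes. Fibroblast markers had medians that were highest in pair 3 and lowest in pair 1, as the complement genes did. All 12 were tested, with medians of 0.13, 0.76 and 1.68, and 9 of 12 were at least 2-fold higher in pair 3, against 4.91% of all genes. The sign pattern of C3 was found for 4 of 12, against 13.5%, and 5 of 12 were higher in all 3 pairs, against 9.93%. The brightest, the collagen genes Col1a2 (0.61, 0.85 and 2.38), Col1a1 (0.68, 0.30 and 1.94) and Col3a1 (-0.08, 0.96 and 2.01), were high in pair 3 as C3 was. The summed signal of the 12 was 149137 to 242784 in the RANK-/- RNAs and 154124, 89771 and 56317 in RANK+/+ RNAs 1, 2 and 3. Among the RANK+/+ RNAs this was the order of C3, with a span of 2.74-fold against 5.51-fold for the 6 complement genes. Over all 6 RNAs the order differed, since RANK+/+ RNA 1 lay below RANK-/- RNA 1 (174968) and for C3 above it. The part of fibroblast content in the complement ratios was not tested.

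The medians of interferon gamma response genes had the signs of C3, with a higher median in pair 2 than in pair 3. All 14 were tested, and 12 of 14 were negative in pair 1 and positive in both other pairs, against 13.5% of all genes. The medians were -0.46, 1.87 and 1.35. In pair 3, 10 of 14 were at least 2-fold higher, against 4.91% of all genes. The brightest, Irf1, Psmb8 and Igtp, had ratios of 0.29, 1.53 and 1.63, of -0.06, 1.495 and 1.397 and of -0.92, 2.82 and 1.81. The sum over all 14 was 86426, 272160 and 69177 in the RANK-/- RNAs and 114383, 70929 and 24103 in the RANK+/+ RNAs. It was lowest in RANK+/+ RNA 3, as for the complement genes, and highest in RANK-/- RNA 2. Among the RANK-/- RNAs, RNA 2 was the lowest for C3, the highest for C1ra and the middle one for C4b, Cfb, C2 and Serping1. Acute phase and interleukin-6 response genes (12 of 12 tested) had medians of 0.64, -0.24 and 1.51. Of these, 9 of 12 were at least 2-fold higher in pair 3, the same count as for fibroblast markers, against 4.91% of all genes. The brightest were Lcn2 (1.53, -0.44 and 0.52), Cebpd (1.34, -1.06 and 1.59) and Cebpb (0.98, -0.63 and 0.22), and Lcn2 and Cebpb were not among the 9. The acute phase medians were above 0 in pair 1 and below 0 in pair 2, the reverse of C3, Cfb, C1ra, C2 and Serping1 in both. C4b was the reverse in pair 2 only, with 0.87 in pair 1 and 0.77 in pair 2. The part of either response in the complement ratios was not tested.

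Macrophage markers, set beside C1q, were detected in this CD45- fraction. All 12 were tested, 0 had the same sign in all 3 pairs, and the medians were -0.47, 0.27 and 0.26, close to the C1qa ratios of -0.70, 0.59 and 0.13. The brightest were Cd14 (0.64, -0.07 and 1.27), Csf1r (-0.65, 0.07 and 0.57) and Cd68 (-0.26, -0.42 and 0.26). The sum over the 12 was 16391, 17184 and 15238 in RANK-/- RNAs 1, 2 and 3 and 13755, 17335 and 7231 in the RANK+/+ RNAs. Cd14 weighs most in it, with a mean log2 signal of 13.35 against 9.80 for Csf1r, the next. Unlike C1qa and C1qb, which were highest in RANK+/+ RNA 1, the sum was highest in RANK+/+ RNA 2. Ptprc, which encodes CD45 itself, was above background on 5 RANK-/- and 4 RANK+/+ arrays, with ratios of -0.93, 0.10 and 0.14, and pan-leukocyte markers (5 of 6 tested) had medians of -0.92, 0.10 and 0.26. The part of remaining leukocytes in the C1q values was not tested. Endothelial markers had medians of -0.01, -0.06 and 0.56 and epithelial markers, which mark the carcinoma cells, -0.02, -0.61 and 0.73, with 8 of 8 tested in each list. With median centring these became 0.05, -0.25 and 0.33 and 0.23, -1.04 and -0.12, so the sign of the endothelial median turned in pair 1 and that of the epithelial one in pairs 1 and 3. The medians of all genes were then 0.13, -0.19 and -0.39. Relative to all genes, the epithelial median stayed above in pair 3 and the endothelial one below in pair 1. The epithelial median of pair 1 moved from below that of all genes to above it. The brightest were Kdr, Vwf and Eng of endothelium and Krt18 (0.45, -1.34 and 1.65), Cldn3 and Krt8 of epithelium. The epithelial sum was lowest in RANK-/- RNA 2, unlike the complement sum, which was lowest in RANK+/+ RNA 3.

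**Figure D4:**
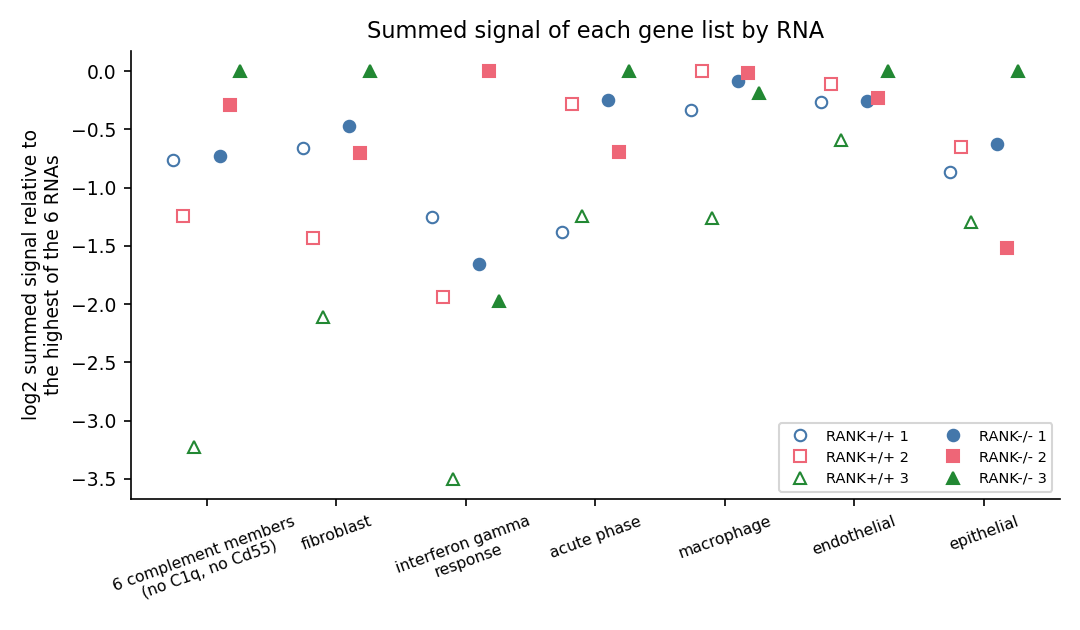
Summed normalized signal of each gene list in the 6 RNAs, on a log2 scale relative to the highest RNA of that list (vertical axis, 0 at the highest), with RANK+/+ open, RANK-/- filled and pairs 1, 2 and 3 as circles, squares and triangles. The brightest genes of a list weigh most in its sum. RANK+/+ RNA 3, the open triangle, is lowest for the 6 complement genes, 5.51 times below RANK+/+ RNA 1, and also for interferon gamma response genes, with a span among the RANK+/+ RNAs of 4.75-fold, and for fibroblast (2.74-fold), macrophage (2.397-fold) and endothelial (1.399-fold) markers.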

How the data were processed

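Gene expression was measured on 6 SurePrint G3 Mouse 2-color arrays. The authors scanned them and extracted spots with Feature Extraction 10.7.3.1, and the deposited median spot intensity and background intensity values were not normalized. Processed intensities and the authors' deposited table of normalized log2 ratios were used only as alternatives. The methods of the study describe it as condition over control after loess and Aquantile, without naming which genotype was the control, and on every array its values ran as RANK-/- over RANK+/+ (r 0.948 to 0.961 with the scanner ratios, column medians -0.0096 to 0.0054). The genome build of the arrays is mm9 per the file headers, so no coordinates are given for probes, and those of promoters are from the RefSeq table (GRCm38.p6).

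Here, median signals were background-corrected (normexp, offset 50), control spots (3671 per array) and outlier spots (212 to 260) were removed, and ratios were normalized by loess and Aquantile in limma 3.58.1 (with R 4.3.3 and version 1.17.8 of data.table). Spots of a probe were averaged, ratios turned to log2 RANK-/- over RANK+/+, and arrays A and B averaged, so that n = 3 pairs. Levels are the normalized single-channel log2 signals of the same fit. A probe stayed in if, for 1 genotype, both arrays of 2 or more pairs had it well above background, which left 30231 of 55681 probes (54.3%). Of the 55681 probes 28026 matched RefSeq (GRCm38.p6) by accession, and 22503 genes were tested, 14673 by symbol and 7830 by the files' own names. Tests were two-sided limma fits (lmFit, eBayes, intercept only) with Benjamini-Hochberg adjustment over all genes and a threshold of 0.05, with a rank product (500 seeded draws) as an alternative. The limma and rank product scripts were tested on simulated data, where the rank product also made calls with no gene changed. All arrays lay on 1 slide and had 1 scan date, so neither could be tested as a batch, and the dye swaps named in the methods of the study were not found within a pair in the labels. Precision is limited by the 3 pairs, since arrays A and B repeat the same RNAs.

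The 9 genes and all gene lists were chosen with earlier results of these data known. Named genes were the 9, Tnfrsf11a and Ptprc as checks, listed complement genes with 1 sign in all 3 pairs, the 3 genes of highest Pearson r with C3, C1ra and C1qa, and at most 3 of the brightest genes of each other list. Genes named beyond that rule were chosen after their values were seen. Another complement gene is not reported here.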

Additional observations from a re-analysis of the deposited data

How the results depend on the processing

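C3, C4b, C1ra, C2, Serping1 and Cd55 kept a mean ratio above 0 under all 18 alternatives, over ranges of 0.66 to 2.36, 0.82 to 2.15, 0.17 to 1.76, 0.092 to 1.60, 0.43 to 1.85 and 0.044 to 0.60, and none of the 9 genes passed the adjusted threshold under any of them. The alternatives that changed only the probe filter or the blocking on pairs left these means unchanged, so not all 18 could move them. The Cfb mean became -0.52 without pair 3, and leaving out 1 pair gave -0.52 to 1.73. With a dye term the means became 1.07 for C3, 1.48 for C4b, 0.019 for Cfb, 0.46 for C1ra, 0.59 for C2 and 0.75 for Serping1. The C1qa mean became -0.063 with median centring, -0.036 with array A alone, -0.17 with a dye term, -0.29 without pair 2 and -0.054 without pair 3 (-0.29 to 0.36 over the pairs left out), and the C1qb mean -0.051 with median centring, -0.18 with a dye term, -0.28 without pair 2 and -0.090 without pair 3 (-0.28 to 0.47). Median centring also moved the median of all genes to -0.14.

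The limma count over all genes of 0 became 13 with the 6 arrays entered and the pair as a random block (consensus correlation 0.96) and 20 by the rank product, none of them among the 9. Without pairing, with no replicate block on the pair number, limma called 0 genes, and 830 had an unadjusted p below 0.05. The count of complement genes higher in all 3 pairs was 1, and 2 with median centring. With 1 pair left out the count asks only for the 2 pairs that remain, so it can stay or rise but not fall. It was then 1 to 8, 8 without pair 1, and the share of all genes higher in 2 pairs was not computed. For the other complement genes it was 2, became 1 with median centring and 6 with no filter on dim probes (47 genes). Over the 2 pairs that remain when 1 is left out, it was 3 to 11. Deviations of the same-numbered RNAs from their group means correlated at -0.034, -0.22 and -0.041, so the numbers were not read as pairing the RNAs beyond sharing an array. Signal over background did not limit the 9 genes, all above background on every array, but left 24 of 48 other complement genes untested.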
